A study of Mus musculus with 11 samples.

Results

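Axon guidance genes encode the ligands and receptors that steer growing nerve fibres, and the same molecules act on blood vessels and immune cells. They were described here in the outermost coat (the adventitia) of the mouse abdominal aorta. The members were all probe sets of the array whose single gene symbol in the platform annotation names a semaphorin of classes 3 to 7, a plexin, Nrp1 or Nrp2, an ephrin, an Eph receptor, a netrin, Dcc or an Unc5 receptor, a Slit or a Robo. These were 96 of 22626 probe sets and 57 of 12393 named genes, and 25 of the 57 genes had more than 1 probe set. A further 12 genes with such symbols, among them Plxnb1, Ephb2 and Robo2, had no probe set under that single symbol and were not analysed here.

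The study made 11 arrays from male mice aged 78 weeks on normal chow. The ATLO group was 4 arrays of B6.129P2-Apoe<tm1Unc>/J mice, which lack apolipoprotein E, and its tissue was adventitia that held artery tertiary lymphoid organs (ATLO, clusters of lymphocytes beside diseased arteries) within the lesion area. The outside-lesion group was 4 arrays of the same strain from adventitia away from the lesions, although the series' design text speaks of mice without lesions. The wild-type group was 3 arrays of adventitia from mice labelled C57BL, whose titles also carry the unexplained letters PNS. Each Apoe-deficient sample pooled 200 laser-microdissected sections of 10 micrometres from an aorta taken out with its lymph nodes and fat. RNA of Apoe-deficient samples was amplified for 68 h and that of wild-type samples for 24 h after another extraction kit, so that in comparisons with wild type the genotype and the preparation cannot be told apart. The labels do not say which arrays share an animal. The p-values then cover the spread among these samples alone, which may be technical.

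Semaphorins act through plexins, and most of class 3 needs a neuropilin as co-receptor. Ephrins sit on the cell surface and bind Eph receptor tyrosine kinases on the neighbouring cell. Netrins act through Dcc and the Unc5 receptors, and Slits through Robo receptors. In the adventitia such genes can be read from sympathetic nerve fibres, fibroblasts, vessels of the wall and infiltrating leukocytes, and several class 4 and class 7 semaphorins are known from lymphocytes and myeloid cells.

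The deposited values are linear signals per probe set, scaled by the authors to a common level on each array. Signals under 35.1, the lowest level used (the 20th percentile of all values), were raised to it before log2 was taken. Apoe read between 45.9 and 179.7 on the 8 Apoe-deficient arrays and between 11969 and 13164 on the wild-type arrays. None of the 9 fibroblast and none of the immune markers on the array lay at the lowest level on all arrays. A marker meets this low bar with 1 array of any group, and the B cell marker Pax5 was at the lowest level on 3 of the 4 ATLO arrays. The actin control spots were read as a rough sign of RNA quality, taken as worse the higher the ratio of their 3' to their 5' signal. These 3'-to-5' ratios lay between 1.71 and 8.14 in ATLO, 6.22 and 11.99 outside the lesion and 4.19 and 5.40 in wild type. What set them was not tested. Scaling all arrays to the same median instead moved the median log2 change of all tested probe sets by -0.117 for ATLO against outside-lesion and by 0.172 for outside-lesion against wild type.

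Of the 96 member probe sets, 49 passed the filter on low values, which asked for at least 3 arrays above their own 40th percentile, and these covered 41 of the 57 genes. Only 26 of the 49 lay above that level on all arrays, and 2 reached it in arrays of 1 group alone, Sema6a on 3 outside-lesion arrays and Robo1 on 3 ATLO arrays. Among the called members, Sema3c and Epha4 also needed the wild-type arrays, the group where they were high, to pass. The 47 probe sets left out had signals between 0.6 and 168. They included every probe set of 16 genes, namely Sema3e, Sema5b, Sema6b, Plxna1, Efna2, Efna3, Efna4, Efna5, Epha1, Epha6, Epha8, Ephb6, Ntn3, Ntn4, Slit1 and Robo3. A low signal here is a limit of the array and does not show that a gene was silent. In bulk tissue such as this, fewer cells of a type and less RNA per cell cannot be told apart.

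Between ATLO and outside-lesion adventitia, limma called 9 of the 49 tested members at a Benjamini-Hochberg adjusted p under 0.05, or 18.4%, where 31.9% of all 14988 tested probe sets were called. Of these, 6 were higher in ATLO (17.9% of all tested probe sets were) and 3 lower (13.9% were). The 2 groups did not overlap in 10 members, against 30.4% of all tested probe sets. By gene, Sema4d, Plxnb2, Plxnc1, Epha3 and Robo1 were higher and Sema6a, Efnb1 and Robo4 lower. The median log2 change of the tested members was -0.05, against 0.10 over all tested probe sets, and over all 96 members without the filter it was -0.03, against 0.00 over all 22626. The balance of calls moved with the scaling. Equal array medians gave 5 higher and 7 lower members and quantile normalization 5 and 6, as the calls over all tested probe sets moved from 56.3% higher to 44.1% higher with equal medians.

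Between ATLO and wild-type adventitia, 10 of the 49 were called (20.4%, with 26.8% of all tested probe sets called), 5 higher and 5 lower, where 13.4% of all tested probe sets were called in each direction. The split moved with the filter and the arrays, to 4 higher and 9 lower over all 96 members without the filter, and to 5 higher and 2 lower without wild-type replicate 1 or 2. Here 17 members had groups that did not overlap, against 38.1% of all tested probe sets, and outside the lesion against wild type 11 had, against 21.5%. Sema4a, Sema4d, Sema7a and Plxnc1 were higher in ATLO, and Sema3c, Sema5a, Epha4, Ntn1 and Unc5c lower. The tested members had a median log2 change of -0.27, against -0.05 over all tested probe sets (-0.19 against -0.01 without the filter). The wild-type group had the highest mean log2 signal in 25 of the 49 tested members (51.0%) and in 36.9% of all tested probe sets, while ATLO had it in 10 members (20.4%) and in 39.9% of all. Between outside-lesion and wild-type adventitia only Unc5c was called, as lower, 1 of 49 (2.04%, with 3.26% of all called, 1.72% higher and 1.54% lower). An unadjusted limma p under 0.05 was reached by 13 of the 49 members and by 3401 of all 14988 tested probe sets. Sema4d and Plxnc1 were called in both comparisons of ATLO, which share the ATLO arrays.

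**Figure D1:**
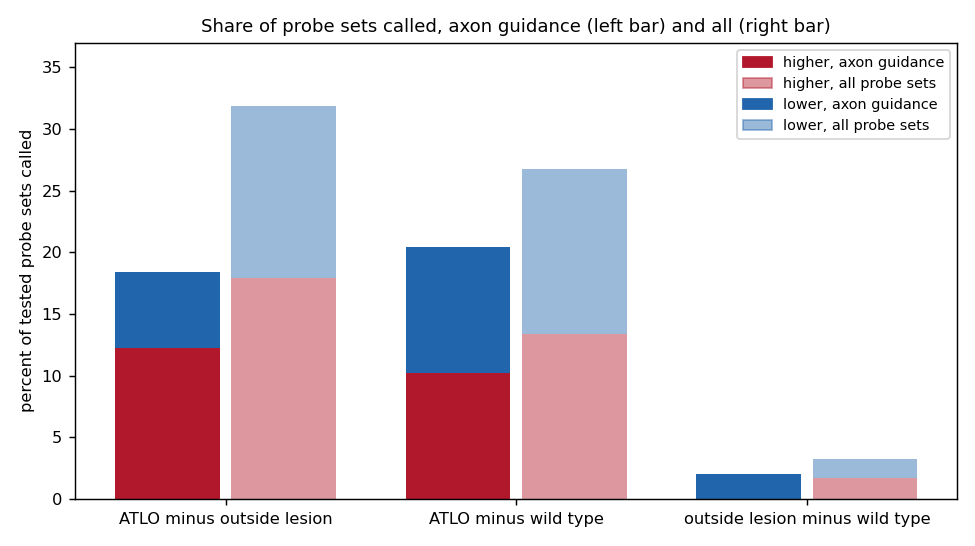
Percent of tested probe sets called by limma (vertical axis) in the 3 comparisons, for the 49 tested axon guidance probe sets (left bars, full colour) and all 14988 tested probe sets (right bars, pale), split into higher (red) and lower (blue) in the group named first. The left bars reach 18.4%, 20.4% and 2.04% and the right bars 31.9%, 26.8% and 3.26%.

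**Figure D2:**
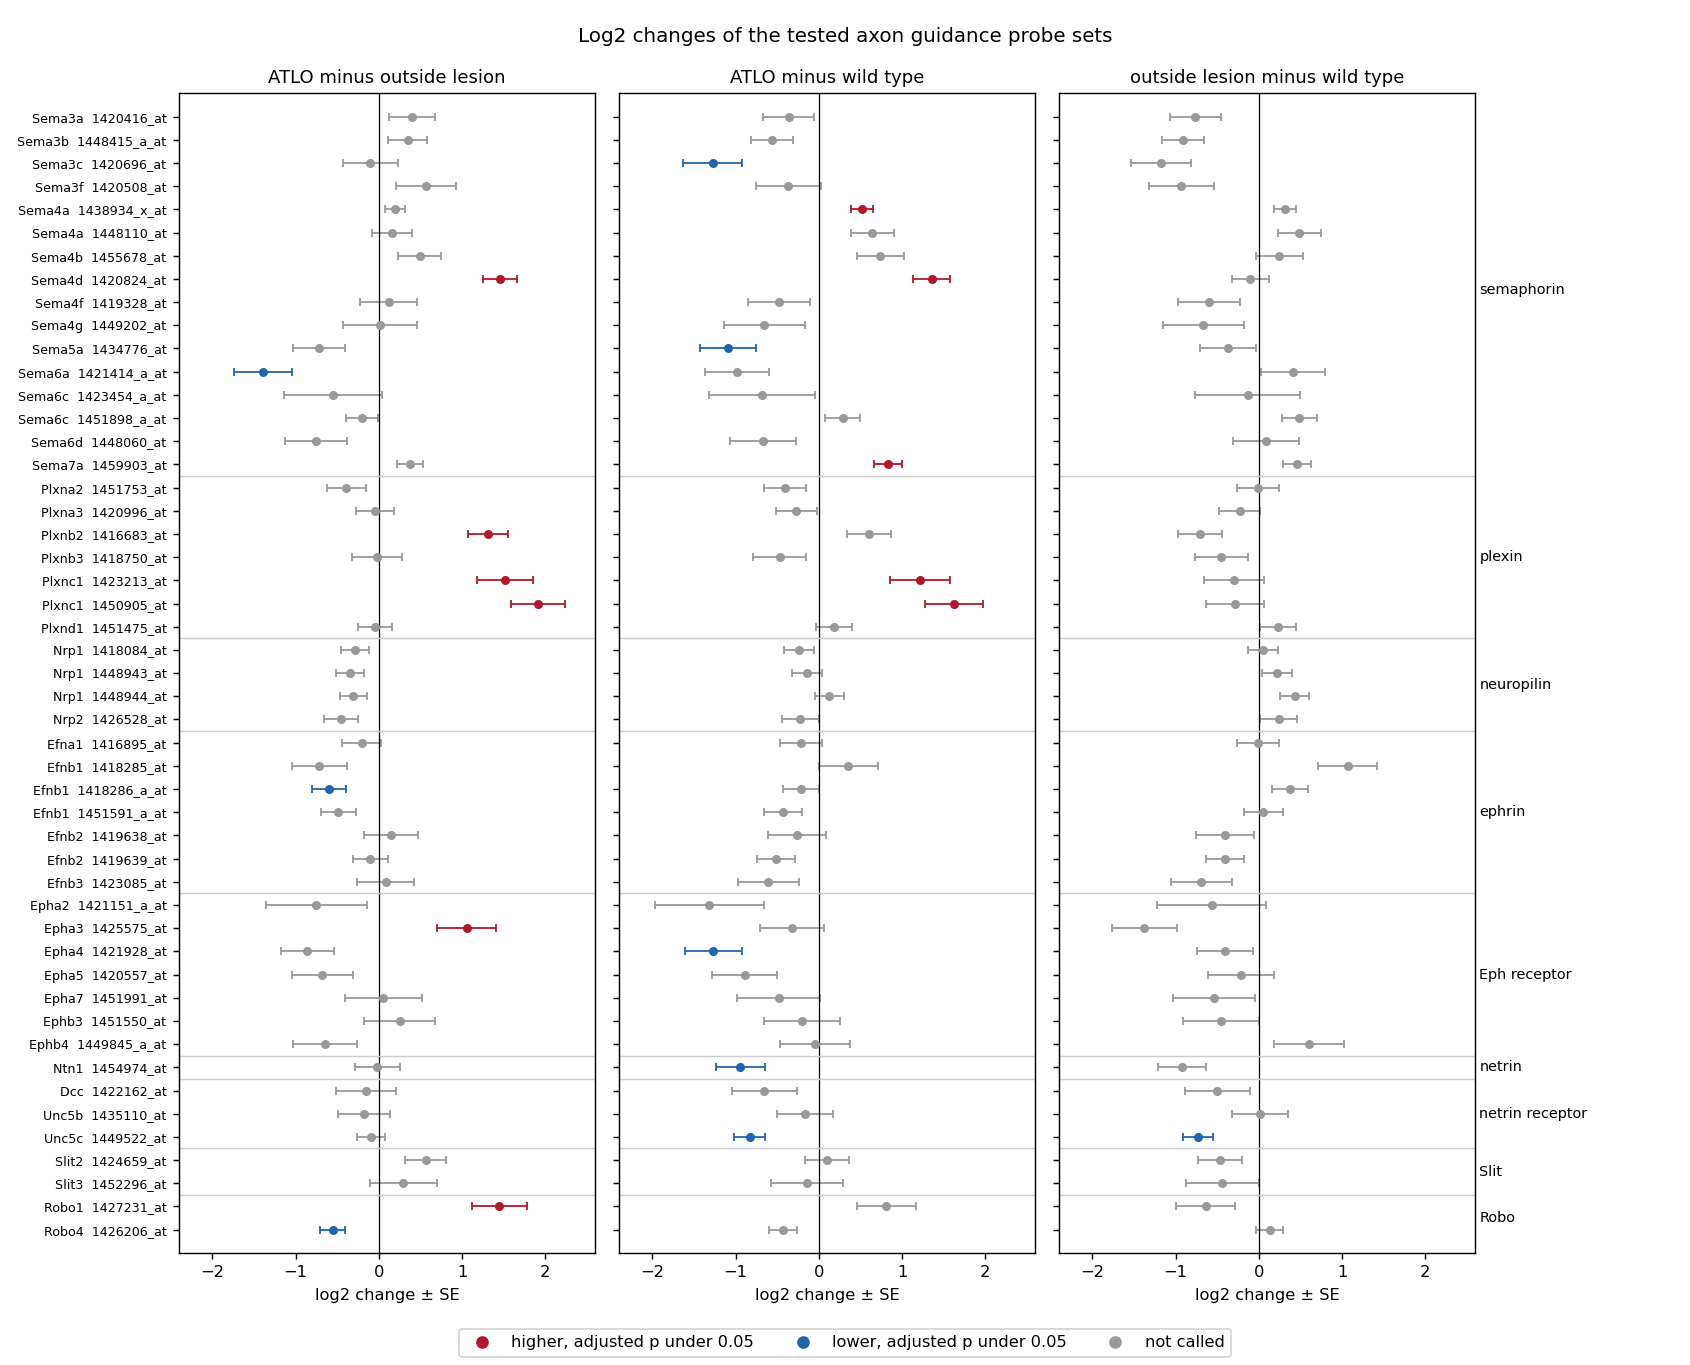
Log2 change ± SE (horizontal axes) of the 49 tested axon guidance probe sets, 1 row each and grouped by family, in the 3 comparisons. Red and blue points passed the test as higher and lower in the group named first, and gray points did not. Calls in the 2 panels with ATLO were spread over several families, and the panel of outside-lesion against wild type holds a single call, Unc5c.

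Among the semaphorins, Sema4d was called higher in ATLO in both comparisons, and Sema4a and Sema7a against wild type alone. Sema3c and Sema5a were called lower against wild type alone, and Sema6a against outside-lesion adventitia alone. Of the 4 tested class 3 probe sets, 3 had a positive change in ATLO against outside-lesion, none of them called. Sema4d, a membrane semaphorin of T cells that binds plexins of class B and the B cell receptor Cd72, had signals of 834, 1005, 893 and 946 on the 4 ATLO arrays, 333, 263, 369.8 and 387 outside the lesion and 348, 522 and 255 in wild type. Every ATLO array lay above all 7 others, and the outside-lesion and wild-type arrays overlapped. Sema4d was 2.74-fold higher in ATLO than outside the lesion (log2 change 1.46 ± 0.21, adjusted p = 0.000173). Against wild type it was 2.56-fold higher (log2 change 1.35 ± 0.22, adjusted p = 0.00102). Both calls held under all 22 alternatives tried, which were other scalings, floors, filters and models and each array left out. Its other 2 probe sets were left out as low.

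Sema7a, a semaphorin anchored in the membrane by a lipid, binds plexin C1 and the integrin beta 1 chain. It read 510.2, 514, 521 and 573 in ATLO, 441, 384, 441 and 375 outside the lesion and 247, 368 and 288 in wild type. The groups did not overlap in any of the 3 comparisons, with ATLO on top and wild type at the bottom. The rise in ATLO over wild type passed the test (log2 change 0.83 ± 0.17, adjusted p = 0.00334), and the steps between neighbours in this order did not (0.37 for ATLO against outside-lesion, adjusted p = 0.0872, and 0.46 for outside-lesion against wild type, adjusted p = 0.138).

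Sema4a, found on antigen-presenting and T helper cells, had the same order of groups. Its probe set with the highest signal read 960.3, 1125, 1078 and 1101 in ATLO, 865, 926, 1045 and 893 outside the lesion and 724, 723 and 791 in wild type. ATLO and outside-lesion arrays overlapped, and every Apoe-deficient array lay above the wild-type arrays. ATLO was 1.43-fold higher than wild type (log2 change 0.51 ± 0.13, adjusted p = 0.0125). This probe set is of the type marked x, whose probes can also match other transcripts. A second Sema4a probe set changed by 0.64 on the log2 scale without passing the test (adjusted p = 0.0833). Of the other class 4 members, Sema4b, Sema4f and Sema4g were not called, and the 6 tested class 4 probe sets had log2 changes between 0.01 and 1.46 for ATLO against outside-lesion.

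**Figure D3:**
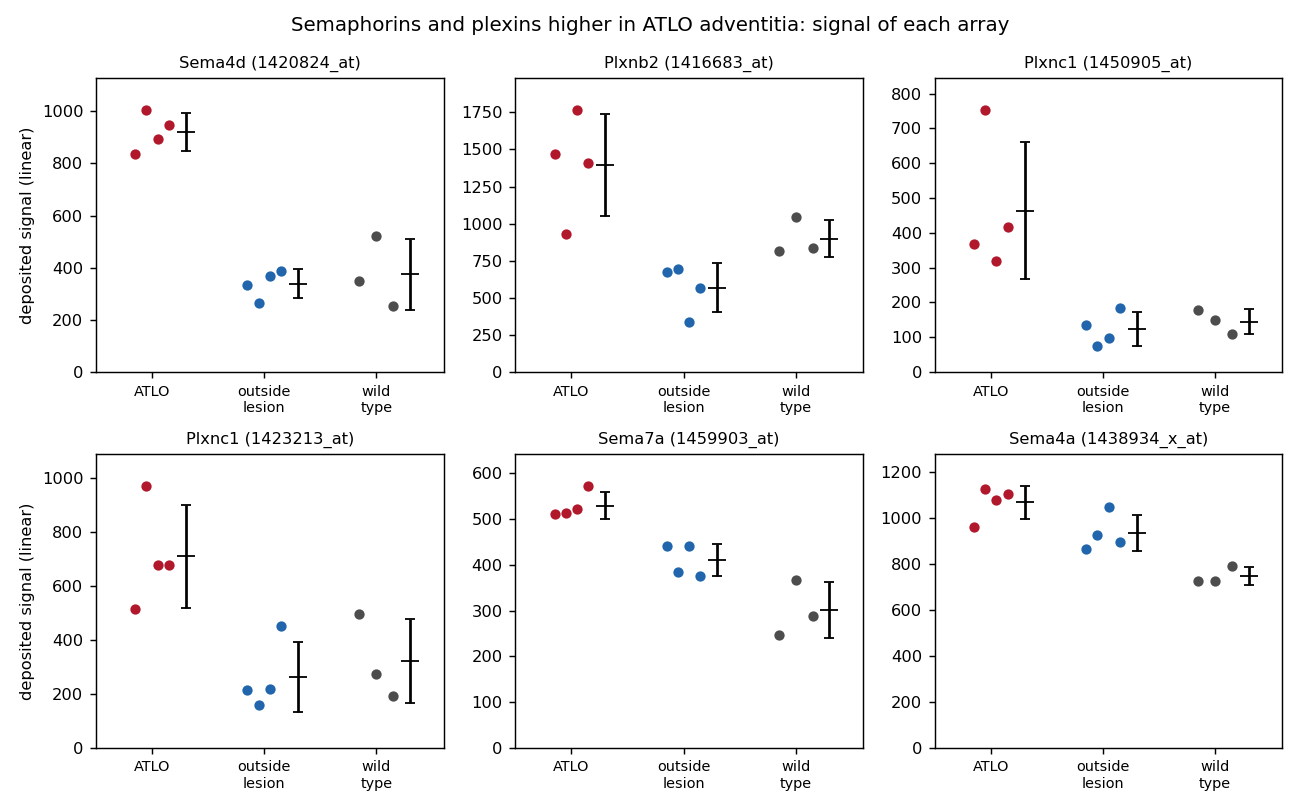
Deposited linear signal (vertical axes, starting at 0) of each array for 6 probe sets of semaphorins and plexins in ATLO (red), outside-lesion (blue) and wild-type (gray) adventitia, with the mean (horizontal mark) ± SD in black. All ATLO arrays lie above the outside-lesion arrays for Sema4d, Plxnb2, Sema7a and both Plxnc1 probe sets, while for Sema4a these 2 groups overlap.

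The secreted class 3 semaphorins passed the test once. All 4 tested class 3 probe sets had a negative log2 change against wild type in ATLO (-1.28 to -0.36) and outside the lesion (-1.18 to -0.76). Over all 14988 tested probe sets, 6982 and 5854 had a positive change in these comparisons, in that order. Both comparisons share the wild-type arrays, so the 8 class 3 changes are not separate observations. Of these 8 changes, 1 was called. It was that of Sema3c, known for its part in forming the great arteries of the heart, which read 46.8, 59.5, 135 and 80.9 in ATLO, 69.8, 93.0, 62.8 and 99.0 outside the lesion and 203, 167 and 173 in wild type. All wild-type arrays lay above all others. The fall in ATLO against wild type was called (log2 change -1.28 ± 0.36, adjusted p = 0.019), though not without wild-type replicate 1 or 3 (adjusted p = 0.0734 and 0.0527, in that order). Sema3c would not have passed the filter without the wild-type arrays, so its passing was tied to the difference. With all probe sets kept the adjusted p was 0.0341. Outside the lesion the change was -1.18 (adjusted p = 0.0882), and the 2 Apoe-deficient groups differed by -0.10. Sema3a, the classical repellent of sensory and sympathetic axons, was at -0.36 in ATLO against wild type (adjusted p = 0.4).

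Sema5a, a transmembrane semaphorin with thrombospondin repeats, read 46.6, 74.9, 70.0 and 99.1 in ATLO, 96.7, 172, 84.9 and 127 outside the lesion and 186, 145 and 125 in wild type. ATLO lay below all wild-type arrays and overlapped with the outside-lesion arrays. The fall against wild type (log2 change -1.10 ± 0.34, adjusted p = 0.029) was lost without ATLO replicate 1 or 3 or wild-type replicate 1 or 2 (adjusted p between 0.0507 and 0.117).

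Sema6a, a transmembrane ligand of class A plexins, read 28.3, 16.2, 67.9 and 64.4 in ATLO, 141, 78.3, 190.2 and 122 outside the lesion and 85.5, 113 and 89.2 in wild type. ATLO lay below every other array, and 2 ATLO arrays were at the lowest level used, so the fold is understated. It was 2.63-fold lower in ATLO than outside the lesion (log2 change -1.39 ± 0.35, adjusted p = 0.00866). It had passed the filter only through the outside-lesion arrays, the group where it was high, so its passing was tied to the difference. With all probe sets kept the adjusted p was 0.0162. Its change against wild type did not pass the test (-0.98, adjusted p = 0.0726). Sema6c and Sema6d were not called in any comparison.

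Among the receptors of semaphorins, 2 plexins were higher in ATLO. Plxnc1, the receptor of Sema7a, was read by 4 probe sets, of which 2 passed the filter. The first gave 514, 974, 677 and 678 in ATLO, 216, 160.3, 219 and 453 outside the lesion and 498, 275 and 193 in wild type. The second gave 368, 753, 318 and 416 in ATLO, 136, 75.7, 96.4 and 185 outside the lesion and 178, 149 and 108 in wild type. ATLO lay above all other arrays in both, and ATLO replicate 2 was the highest array in both.

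With the second probe set, Plxnc1 was 3.76-fold higher in ATLO than outside the lesion (log2 change 1.91 ± 0.32, adjusted p = 0.000575). Against wild type it was 3.08-fold higher (log2 change 1.62 ± 0.35, adjusted p = 0.00466), and both calls held under all 22 alternatives. With the first it was 2.86-fold higher than outside the lesion (log2 change 1.52 ± 0.34, adjusted p = 0.00388). Against wild type it was 2.32-fold higher by that probe set (log2 change 1.22 ± 0.36, adjusted p = 0.0256). The call of the first against wild type was lost without a filter on low values (adjusted p = 0.0797) and without ATLO replicate 2 or wild-type replicate 2 or 3 (adjusted p between 0.0691 and 0.122). The 2 probe sets left out as low read at most 79.9 on any array.

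Plxnb2, a receptor for class 4 semaphorins, read 1469, 933, 1766 and 1406 in ATLO, 671, 697, 336 and 569.5 outside the lesion and 817, 1045 and 836 in wild type. All ATLO arrays lay above all outside-lesion arrays, and wild type lay between, overlapping with ATLO. The rise of ATLO over outside-lesion was 2.48-fold (log2 change 1.31 ± 0.24, adjusted p = 0.00108) and held under all 22 alternatives. Against wild type, neither ATLO (0.60, adjusted p = 0.103) nor outside-lesion adventitia (-0.71, adjusted p = 0.141) passed the test. Plxna2, Plxna3, Plxnb3 and Plxnd1 were not called in any comparison, with log2 changes between -0.47 and 0.23. Plxnd1, the endothelial plexin, averaged 468 ± 37.9 in ATLO, 490.0 ± 109 outside the lesion (SD, n = 4 each) and 423 ± 115 in wild type (n = 3).

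The promoters of Plxnc1 and Sema7a are shown as a receptor and ligand pair that were both higher in ATLO than in wild type, with that of Unc5c, a netrin receptor that was lower. They run from 250 bases before to 50 after the annotated start and come from RefSeq (GRCm38.p6), which held a promoter for 49 of the 57 member genes. Capitals mark the GC box (GGGCGG), the TATA box (TATAAA) and an Ets-type core (GAGGAA), and the kappaB consensus was also searched, each on both strands. No 2 matches overlapped in the printed sequences.
Plxnc1, chr10:94944796-94945095, minus strand: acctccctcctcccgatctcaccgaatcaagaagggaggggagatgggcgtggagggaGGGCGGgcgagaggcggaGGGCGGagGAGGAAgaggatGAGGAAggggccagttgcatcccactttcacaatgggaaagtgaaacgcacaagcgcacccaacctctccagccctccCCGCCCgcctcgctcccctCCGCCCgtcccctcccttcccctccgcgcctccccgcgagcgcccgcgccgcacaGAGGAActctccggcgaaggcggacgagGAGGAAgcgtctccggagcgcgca
Sema7a, chr9:57939862-57940161, plus strand: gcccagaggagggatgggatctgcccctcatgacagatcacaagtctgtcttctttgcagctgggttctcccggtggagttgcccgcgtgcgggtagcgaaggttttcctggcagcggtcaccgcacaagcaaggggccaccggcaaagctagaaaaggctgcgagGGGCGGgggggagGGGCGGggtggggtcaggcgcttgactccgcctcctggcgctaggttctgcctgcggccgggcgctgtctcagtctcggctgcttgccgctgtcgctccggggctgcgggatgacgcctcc
Unc5c, chr3:141465314-141465613, plus strand: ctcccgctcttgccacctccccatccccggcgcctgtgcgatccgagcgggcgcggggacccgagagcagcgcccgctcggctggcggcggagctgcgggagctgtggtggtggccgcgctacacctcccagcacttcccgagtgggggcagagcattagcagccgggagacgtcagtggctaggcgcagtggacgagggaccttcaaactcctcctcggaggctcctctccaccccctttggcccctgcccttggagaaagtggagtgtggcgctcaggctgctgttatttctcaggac

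The Plxnc1 promoter held 4 GC boxes and 4 GAGGAA matches, that of Sema7a 2 GC boxes, and that of Unc5c none of these letters. The 3 printed promoters do not stand for a contrast between higher and lower genes. Among genes called lower, Sema5a held 5 GC boxes and Sema3c 3, and Epha3, called higher, held none of the motifs. Of the promoters of called members, 57.9% held the GC box. The GC box stood in 47 of 62 member promoters (75.8%) and in 35.7% of all 32851 promoters of the same length. GAGGAA stood in 30.6% of member promoters against 28.3% of all, TATAAA in 3.2% against 13.6% and the kappaB consensus in 6.5% against 4.5%. These are matches of letters and not bound sites.

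Neuropilins, the co-receptors of class 3 semaphorins and of vascular endothelial growth factors, were not called. Nrp1 read 2932, 3102, 4174 and 4252 in ATLO, 4817, 3945, 5064 and 4455 outside the lesion and 3501, 3687 and 4666 in wild type. The groups overlapped, and its 3 probe sets changed by -0.35, -0.31 and -0.29 on the log2 scale for ATLO against outside-lesion. Nrp2, prominent on lymphatic and venous endothelium, averaged 509 ± 58.4 in ATLO, 716 ± 182 outside the lesion (SD, n = 4 each) and 596 ± 95.0 in wild type (n = 3). Its change of -0.46 for ATLO against outside-lesion did not pass with the deposited scaling (adjusted p = 0.102) and did with quantile normalization (-0.58, adjusted p = 0.0444) and equal array medians (-0.58, adjusted p = 0.0454).

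Of the ephrins and Eph receptors, 14 of 33 probe sets passed the filter, and 3 genes were called. Efnb1, a transmembrane ephrin, read 356, 383, 549.8 and 483 in ATLO, 736, 476, 796 and 681 outside the lesion and 439, 616 and 484 in wild type. ATLO was lower than outside the lesion on average and the groups overlapped through outside-lesion replicate 2. The fall (log2 change -0.60 ± 0.20, adjusted p = 0.0364) was lost without ATLO replicate 1 or 2 or outside-lesion replicate 1, 3 or 4 (adjusted p between 0.0756 and 0.102) and without a filter on low values (adjusted p = 0.0706). Its other 2 probe sets changed by -0.72 and -0.49 without passing the test. Efna1, Efnb2 and Efnb3 were not called in any comparison. Efnb2, an arterial marker, averaged 237 ± 72.5 in ATLO, 248 ± 25.7 outside the lesion (SD, n = 4 each) and 330.3 ± 47.4 in wild type (n = 3).

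Epha3, a receptor for ephrin A ligands, read 176, 359.5, 217 and 366 in ATLO, 179, 208, 83.2 and 87.4 outside the lesion and 387, 436 and 218 in wild type. The outside-lesion arrays were the low group, and they overlapped with ATLO. ATLO was 2.07-fold higher than outside-lesion (log2 change 1.05 ± 0.36, adjusted p = 0.0388), while its change against wild type was -0.32 (adjusted p = 0.568). The call was lost with quantile normalization (adjusted p = 0.06), with equal array medians (adjusted p = 0.0665), without a filter on low values (adjusted p = 0.108) and without ATLO replicate 2 or 4 or outside-lesion replicate 3 or 4 (adjusted p between 0.106 and 0.11).

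Epha4, which binds ephrins of both classes, read 35.4, 73.5, 78.4 and 55.2 in ATLO, 85.9, 81.4, 133 and 132 outside the lesion and 144, 145 and 129.8 in wild type. ATLO lay below all other arrays. It was 2.41-fold lower than wild type (log2 change -1.27 ± 0.34, adjusted p = 0.0152), and lost the call without wild-type replicate 1 or 2 (adjusted p = 0.0524 and 0.0507, in that order). Epha4 would not have passed the filter without the wild-type arrays, so its passing was tied to the difference. With all probe sets kept the adjusted p was 0.0221. Against outside-lesion adventitia Epha4 missed the threshold (-0.86, adjusted p = 0.0526) and passed with quantile normalization (-0.93, adjusted p = 0.0299) and equal array medians (-0.98, adjusted p = 0.0255). Epha2, Epha5, Epha7, Ephb3 and Ephb4 were not called in any comparison. Ephb3 averaged 203 ± 73.2 in ATLO, 189 ± 120.1 outside the lesion (SD, n = 4 each) and 229.5 ± 74.7 in wild type (n = 3). Efna2, which did not pass the filter and is named after its values were seen, read 63.2, 34.6, 63.1 and 63.1 in ATLO, 73.2, 60.3, 97.2 and 78.9 outside the lesion and 117, 118 and 136 in wild type.

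In the netrin pathway 1 ligand and 1 receptor were lower in ATLO than in wild type, while ATLO and outside-lesion adventitia gave no call in this pathway. Unc5c, a receptor that mediates repulsion by netrin 1, read 183, 217, 199.9 and 235 in ATLO, 246, 208, 228 and 210.1 outside the lesion and 381, 418 and 319 in wild type. All wild-type arrays lay above the 8 Apoe-deficient arrays, which overlapped with each other. Unc5c was 1.78-fold lower in ATLO (log2 change -0.83 ± 0.18, adjusted p = 0.00495) and 1.66-fold lower outside the lesion (log2 change -0.74 ± 0.18, adjusted p = 0.0453) than in wild type. The first call held under all 22 alternatives. The second was lost without any single array other than ATLO replicate 2 (adjusted p between 0.0518 and 0.175 without each of the other 10), and with quantile normalization (adjusted p = 0.0671), equal array medians (adjusted p = 0.0937) and a fit of the 2 compared groups alone (adjusted p = 0.0708).

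Ntn1, which encodes the secreted ligand netrin 1, read 801, 566, 1072 and 826 in ATLO, 1030.1, 1259.9, 524 and 624 outside the lesion and 1222, 1718 and 1704 in wild type. ATLO lay below all wild-type arrays, and outside-lesion replicate 2 reached into the wild-type range. The fall in ATLO (log2 change -0.94 ± 0.29, adjusted p = 0.0302) was lost without ATLO replicate 1, 2 or 4 or wild-type replicate 2 or 3 (adjusted p between 0.0529 and 0.0992), with equal array medians (adjusted p = 0.0563) and without a filter on low values (adjusted p = 0.0859). Outside the lesion the change was -0.92 (adjusted p = 0.0991), and ATLO and outside-lesion adventitia differed by -0.02 (adjusted p = 0.963). Unc5b, the endothelial netrin receptor, and Dcc, the receptor for netrin attraction, were not called in any comparison. Unc5b averaged 187 ± 84.1 in ATLO, 202 ± 54.3 outside the lesion (SD, n = 4 each) and 196 ± 30.7 in wild type (n = 3).

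Among Slits and their receptors the Robos changed between ATLO and outside-lesion adventitia, in opposite directions. Robo1, the broadly expressed Slit receptor, read 78.2, 214, 145 and 141 in ATLO, 46.0, 44.6, 54.1 and 56.0 outside the lesion and 82.8, 91.8 and 61.7 in wild type. ATLO lay above all outside-lesion arrays and overlapped with wild type through ATLO replicate 1. The rise over outside-lesion was 2.73-fold (log2 change 1.45 ± 0.33, adjusted p = 0.00457). Robo1 had passed the filter only through ATLO arrays, the group where it was high, and with all probe sets kept the adjusted p was 0.00709. The change from wild type did not pass (0.81, adjusted p = 0.11). Robo4, the Robo of endothelial cells, read 290.0, 239, 281 and 276 in ATLO, 395, 442, 439.9 and 328 outside the lesion and 354, 367 and 373 in wild type. ATLO lay below all other arrays, and the change was 1.47-fold lower than outside-lesion (log2 change -0.56 ± 0.15, adjusted p = 0.014). Slit2 averaged 445 ± 70.5 in ATLO and 314 ± 123 outside the lesion (SD, n = 4 each), and Slit3 496 ± 281 in ATLO and 394 ± 186 outside the lesion. Slit2 changed by 0.56 (adjusted p = 0.0966) and Slit3 by 0.29 (adjusted p = 0.62) for ATLO against outside-lesion. The filter left out Slit1 and Robo3.

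**Figure D4:**
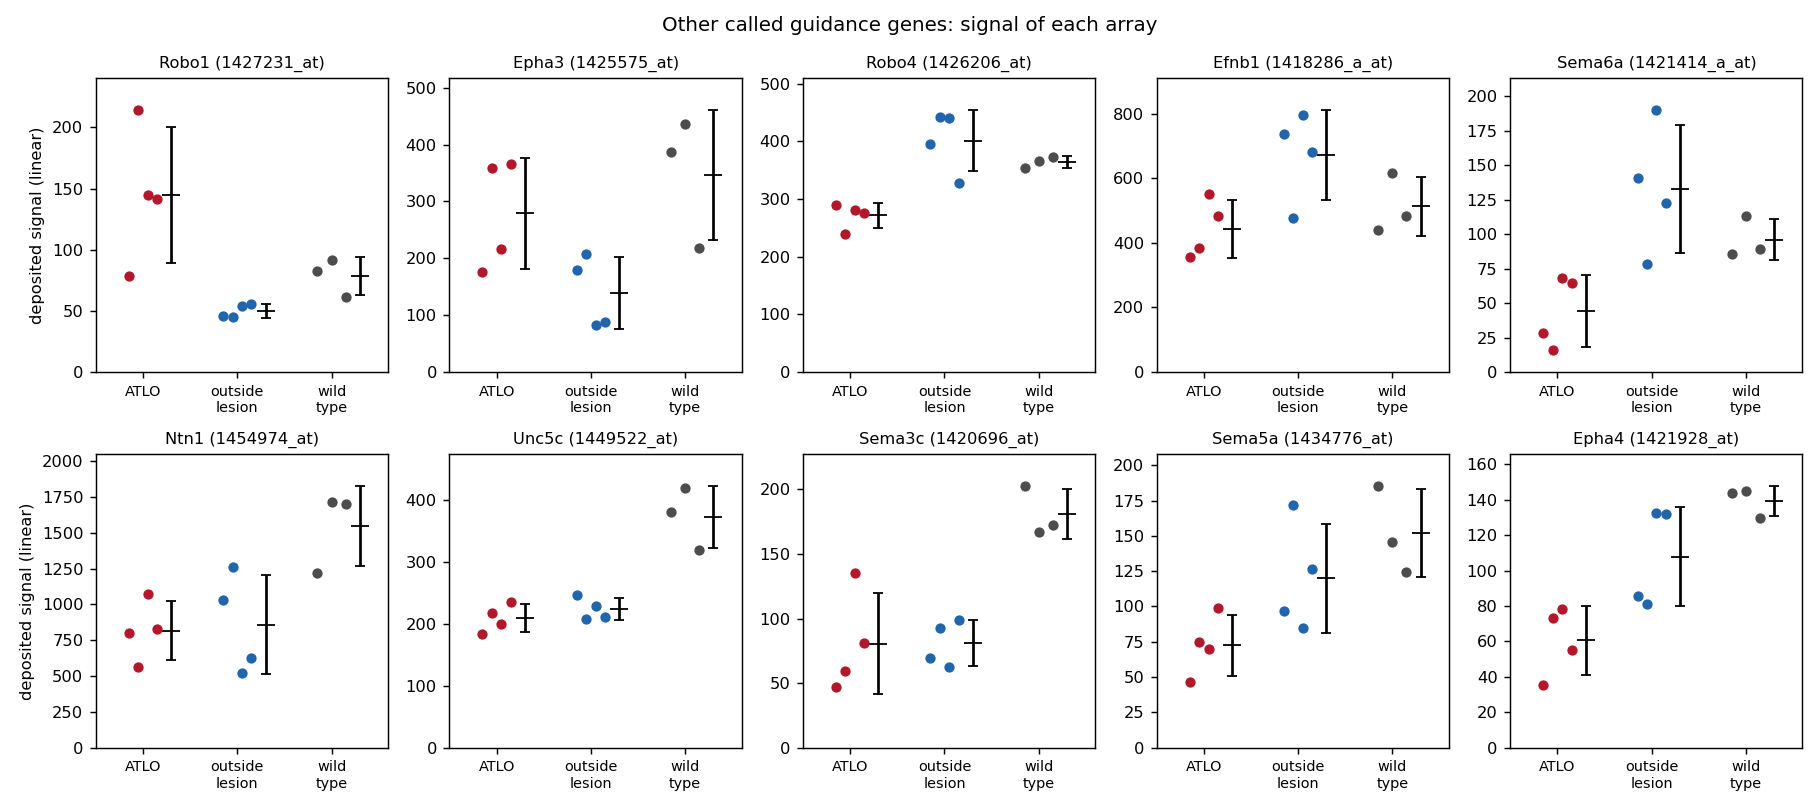
Deposited linear signal (vertical axes, starting at 0) of each array for 10 further called probe sets in ATLO (red), outside-lesion (blue) and wild-type (gray) adventitia, with the mean (horizontal mark) ± SD in black. The upper row holds genes called between ATLO and outside-lesion adventitia, and the lower row genes called in ATLO against wild type, with all wild-type arrays above all ATLO arrays.

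Of the signs of RNA quality, the actin ratios given above differed between ATLO and outside-lesion adventitia more than those of Gapdh did. The Gapdh 3'-to-5' ratio lay between 1.09 and 3.18 in ATLO (median 1.73), 1.27 and 2.13 outside the lesion (median 1.77) and 1.10 and 1.30 in wild type. With the actin ratio as a covariate, 4 members were called in place of 9. Plxnb2, Sema4d and Plxnc1 by its second probe set stayed called, and Sema3f passed. The calls of Robo1 (log2 change 1.13, adjusted p = 0.0864), Plxnc1 by its first probe set (1.22, adjusted p = 0.075) and Robo4 (-0.43, adjusted p = 0.15) were lost. So were those of Sema6a (-0.95, adjusted p = 0.156), Efnb1 (-0.37, adjusted p = 0.345) and Epha3 (0.58, adjusted p = 0.408). All 6 kept their direction. The part of RNA quality in these differences was not tested beyond this fit.

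Markers of several other cell types moved in the same comparison. In ATLO against outside-lesion adventitia, 8 of 8 tested T cell, 7 of 8 B cell, 6 of 7 plasma cell and 9 of 10 macrophage markers rose. Of all tested probe sets, 17.9% were called higher and 13.9% lower in this comparison. The summed signal of the T cell markers lay between 5914 and 7908 in ATLO, 1092 and 2137 outside the lesion and 1815 and 2536 in wild type. For macrophage markers the sum lay between 43009 and 66080 in ATLO, 16889 and 30878 outside the lesion and 22370 and 30016 in wild type. Both sums lay higher in ATLO than in the other groups. Of 10 endothelial markers 5 fell, with sums between 4293 and 6486 in ATLO, 7070 and 14837 outside the lesion and 6570 and 8175 in wild type. Fibroblast markers rose in 6 of 9, with sums between 55237 and 104569 in ATLO, 30212 and 79110 outside the lesion and 52152 and 59573 in wild type. Fat cell markers fell, 5 of 6 for adipocytes (median log2 change -1.35) and 5 of 6 for brown adipocytes (median -3.07), as did 3 of 6 mast cell and 2 of 8 smooth muscle markers. Of 5 Schwann cell markers, 1 fell in ATLO against outside-lesion. In such short lists, 1 or 2 calls are near the share over all tested probe sets. No neuron marker of 12 was called in any comparison. Their median log2 changes were 1.15 (ATLO against outside-lesion), -0.16 (ATLO against wild type) and -1.29 (outside-lesion against wild type). The spread within a group was wide and limits such calls, with Snap25 at 3219, 47.6 and 373.5 in wild type. Against wild type, 7 of 8 T cell, 5 of 8 B cell and 5 of 10 macrophage markers rose in ATLO and 6 of 8 smooth muscle markers fell. There 13.4% of all tested probe sets were called in each direction. The neuron markers summed to between 1773 and 6957 in ATLO, 610 and 9023 outside the lesion and 968 and 23116 in wild type. No marker of these lists lay at the lowest level on all arrays. Their part in the results was not tested.

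Other genes of guidance pathways, from a list of 87 of which 68 were on the array and 58 were tested, were counted in the same fit. Each was read by its probe set with the highest mean, while the shares over all count every tested probe set. Cd72, Sdc1 and Kdr also stand in the marker lists above. In ATLO, 16 were higher (27.6%, against 17.9% of all tested probe sets) and 5 lower (8.62% against 13.9%) than outside the lesion. Against wild type 15 were higher (25.9% against 13.4%) and 6 lower (10.3% against 13.4%), and outside-lesion adventitia had 2 lower than wild type (3.45% against 1.54%). Cd72, a B cell receptor that binds Sema4d, read 1221, 1669, 1324 and 1281 in ATLO, 223, 182, 172 and 199 outside the lesion and 122, 329 and 103 in wild type. ATLO stood far above both other groups (log2 change 2.82 ± 0.29, adjusted p = 2.45e-05 against outside-lesion). Cxcr4, the receptor of the chemokine Cxcl12 (log2 changes of 2.76 against outside-lesion and 1.91 against wild type), and Chl1, an adhesion molecule that works with semaphorin receptors (log2 changes of 2.68 against outside-lesion and 2.11 against wild type), rose as well.

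Among the lower genes of that list, Kdr, the growth factor receptor that pairs with neuropilin 1, averaged 486 ± 90.5 in ATLO and 1301 ± 166 outside the lesion (SD, n = 4 each; log2 change -1.43 ± 0.16, adjusted p = 3.4e-05). Cfl2, an actin-severing cofilin, fell by a log2 change of -1.10 against outside-lesion and -1.08 against wild type. Ntng1, a membrane-anchored netrin relative, fell by a log2 change of -0.91 against outside-lesion (adjusted p = 0.0484), and Neo1, a netrin receptor related to Dcc, by -1.41 against wild type (adjusted p = 0.0399, with overlapping groups). Enah, an actin regulator that acts downstream of Robo and netrin receptors, read 489.8, 393, 750.3 and 465 in ATLO, 595, 600.3, 425 and 387 outside the lesion and 1734, 1692 and 1505 in wild type. All wild-type arrays lay above all others (-1.69 in ATLO, adjusted p = 0.000281, and -1.74 outside the lesion, adjusted p = 0.00377). Dpysl3, of the collapsin response mediator family, was lower outside the lesion than in wild type (-1.32, adjusted p = 0.0165) and higher in ATLO than outside the lesion (0.91, adjusted p = 0.00524).

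Ligands and receptors that bind each other were set side by side, and no difference between their changes was tested. Sema7a and Plxnc1 were both called higher in ATLO against wild type, and Ntn1 and Unc5c were both called lower. Against outside-lesion adventitia Plxnc1 was called and Sema7a was not (limma adjusted p = 0.0872). Several pairs did not move alike. Dcc and Unc5b were not called where Ntn1 was lower, nor Nrp1 and Nrp2 where Sema3c was lower, nor Plxna2 where Sema6a was lower. Slit2 and Slit3 were not called where Robo1 was higher and Robo4 lower. Sema4d was called higher together with Plxnb2 and Cd72 against outside-lesion adventitia. Against wild type Sema4d and Cd72 were called, and Plxnb2 had a change of 0.60 that missed the threshold (adjusted p = 0.103) and passed without ATLO replicate 2, without outside-lesion replicate 3 and with array weights (adjusted p = 0.041, 0.0459 and 0.0445, in that order). Slit2, with 0.56 in ATLO against outside-lesion, likewise passed with array weights (adjusted p = 0.0237) and without outside-lesion replicate 2 (adjusted p = 0.00884).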

How the data were processed

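The deposited file holds linear signal intensities per probe set for 11 Affymetrix arrays, made by the authors with GCOS 1.4 per the submitters' processing notes. The summary method and the annotation used are not given in the sources used here. With the lowest and highest 2% of probe sets trimmed, each array's mean was 500.168 to 500.266, so the deposited intensities had been scaled per array. The table has 22690 rows, 64 of them controls, which were not used. The platform annotation named a gene where a probe set had 1 symbol (20380 of 22626), and 20351 of these were found in the RefSeq gene table by gene ID with no symbol changed. No coordinates of probe sets are given, since no build is named.

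Signals were raised to a floor of 35.1, taken to log2 and fitted with limma 3.58.1 in R 4.3.3, with a mean per group over all 11 arrays and an intensity trend. Benjamini-Hochberg adjustment ran over all 14988 tested probe sets. Errors are SE for log2 changes and SD for signals. Precision is limited by the number of arrays. A gene with several probe sets was represented by that with the highest mean. Named by rule were all called members, the 2 genes per family with the highest mean signal, Apoe, and the 3 largest called changes in each direction of the wider pathway list. Members, lists, tests and alternatives were chosen with earlier results of these data known. Alternatives changed the scaling, floor, filter, arrays or groups fitted, replicate block, intensity trend, array weights, fold threshold or covariate (the actin ratio). The fit was also run on simulated data with independent noise on each array. These had no floor, scaling shift, RNA quality difference or shared replicate effect, so that run says nothing on those. Median signals per array lay between 152.3 and 191.7.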

Additional observations from a re-analysis of the deposited data

Results flagged for a closer look

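In 50 sets of 4 arrays (the ATLO and the outside-lesion group for each named member probe set), 2 held an array whose gap to the nearest other array took up more of the group's log2 range than a 95% limit for 4 values allows, and chance gives about 1 in 20. For Plxnd1, the endothelial plexin that binds Sema3e, ATLO replicate 2 read 410.9 where the other 3 ATLO arrays lay between 484.1 and 489.3. For Ntn4, a basement membrane netrin that did not pass the filter, outside-lesion replicate 2 read 60.3 where the other 3 were under the floor, between 4.2 and 17.4. Its place apart comes from the floor, which makes the 3 low arrays equal, since on the deposited values the gap was 0.466 of the log2 range, within the limit.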

How the results depend on the processing

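Of the 20 calls of single member probe sets, 12 held without each array in turn, 11 under every other alternative bar the 2-fold threshold, and 8 under both. Those 8 were Sema4d and Plxnc1 (by its second probe set) in both comparisons of ATLO, Plxnb2 in ATLO against outside-lesion, and Sema4a, Sema7a and Unc5c in ATLO against wild type. The last 3 changed by less than 2-fold, so that 5 of the 8, and 13 of the 20, also passed at 2-fold. No called change turned its sign. The count of called members, 9 for ATLO against outside-lesion, was 14 with array weights and 4 with the actin ratio as a covariate, and 7 to 12 without 1 array. The count of 10 against wild type was 6 at a 2-fold threshold and 7 to 11 without 1 array. The count of 1 for outside-lesion against wild type was 0 with quantile normalization, equal array medians, only the compared groups, the replicate block, the actin covariate or a 2-fold threshold. It was 2 with the floor at the 30th percentile, 5 with array weights and 0 to 2 without 1 array. Where limma gave 0, between 8 and 13 members had an unadjusted p under 0.05, as did between 2571 and 3371 of all 14988 tested probe sets. Over all probe sets, the 4777 calls of ATLO against outside-lesion were 2552 with the actin covariate and 2346 at 2-fold (4003 to 4693 without 1 array), and the 4012 against wild type were 2009 at 2-fold (2740 to 4241). The 489 calls of outside-lesion against wild type were 301 without a filter, 202 with only the compared groups, 189 with the replicate block, 248 without the trend, 1530 with array weights, 86 with the actin covariate, 238 at 2-fold and 21 (without wild-type replicate 2) to 886 (without outside-lesion replicate 2) without 1 array. The cause of these shifts was not tested. The titles number the replicates of each group alike. Same-numbered arrays of different groups deviated together (r over 0.1) in 5 of 10 pairs (r between -0.18 and 0.27), against 5 of 30 pairs of different numbers. An array correlated best with its own number in 12 of 20 checks, each among the 3 or 4 arrays of another group. This is a hint from the data that numbers may share something. No label states it, so the block was not taken as a pairing. The main fit treats the arrays as independent, and its p-values do not account for anything that numbers share. The block left 9 members called against outside-lesion and 8 in ATLO against wild type, losing Ntn1 and the first probe set of Plxnc1 there. Without a filter, 7 and 13 members were called in the comparisons of ATLO. Signals near the floor limit what the 47 untested members can show.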
